A study of Mus musculus with 42 samples.

Results

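The comparison described here asked whether chronic restraint stress (CRS) left a shared transcriptional mark in 5 regions of the mouse brain. It set all 15 CRS libraries against all 15 naive libraries of the lateral hypothalamus (LH), the medial part of the prefrontal cortex (mPFC), the nucleus accumbens (NAc), the VTA (ventral tegmental area) and vHippo (ventral hippocampus), with 1 CRS coefficient common to the regions and the region as a block. These are 30 of the 42 libraries of the series. The other 12, from the lateral habenula (LHb), are in a separately made table and were set beside the result only. CRS mice had gone through repeated restraint, naive mice had not, and mice of both groups had a forced swim test (FST) 2 days before sacrifice, so the naive libraries also come from mice that had been made to swim. LHb groups were further divided by FST immobility, and the labels give no such class for the 5 regions. Each region holds 3 CRS and 3 naive libraries of polyadenylated RNA from bulk tissue. Strain, sex, age and the number of restraint sessions are not given in the sources used here, nor is it said whether same-numbered libraries of different regions come from 1 mouse.

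Restraint is a standard laboratory stressor that raises glucocorticoids through the hypothalamic-pituitary-adrenal axis. Glucocorticoids act through nuclear receptors that are present in neurons, glia and vessels of all these regions, and clock genes, immediate early genes and metabolic regulators are among their known targets. A coefficient common to the regions can show a change that each of them shares, and it averages out changes that differ in sign between regions.

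Total counts ran from 53828816 to 79029360 in CRS libraries and from 53143878 to 81384893 in naive libraries. Mitochondrial genes took 7.58% to 11.1% of counts in CRS libraries and 5.22% to 14.7% in naive libraries, and ribosomal RNA took 0.1% to 2.19% in CRS libraries and 0.247% to 7.0% in naive libraries. Checked against the marker list of each region, the summed FPKM of all 6 vHippo and all 6 NAc libraries lay above every library of the other regions, as did 5 of 6 VTA, 4 of 6 mPFC and 5 of 6 LH libraries. Naive VTA 2 summed to 144 FPKM of VTA markers, below CRS NAc 1 at 159, and naive LH 2 to 503 FPKM of LH markers, below naive VTA 2 at 618. Skeletal muscle transcripts (13 genes, a list added after the data were seen) summed to 227, 98.3 and 111 FPKM in naive VTA 3, naive mPFC 2 and naive LH 2, against 2.25 to 24.7 FPKM in CRS libraries and 1.97 to 24.3 FPKM in the remaining naive libraries.

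Few genes differed. Of 24244 genes tested, 3 rose and 2 fell in CRS libraries past an adjusted p of 0.05, which are 0.0124% and 0.00825% of the genes tested, or 0.0206% together. They were Hif3a and the predicted genes Gm21860 and Gm21748, all higher, and the X-linked genes Xlr4a and Xlr3a, both lower. At an unadjusted p below 0.05 there were 503 genes higher (2.07%) and 515 lower (2.12%) in CRS libraries, together 1018 genes or 4.2% of those tested, which is fewer than the 1212.2 of an even spread of p-values. When the same counts were summed over the 5 regions by library number, leaving 3 CRS sums against 3 naive sums, edgeR called no gene (1149 genes at an unadjusted p below 0.05). DESeq2 on the 30 libraries called 10 genes higher and 16 lower, the 5 among them. Below, called or passed refers to edgeR unless another method is named.

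**Figure D1:**
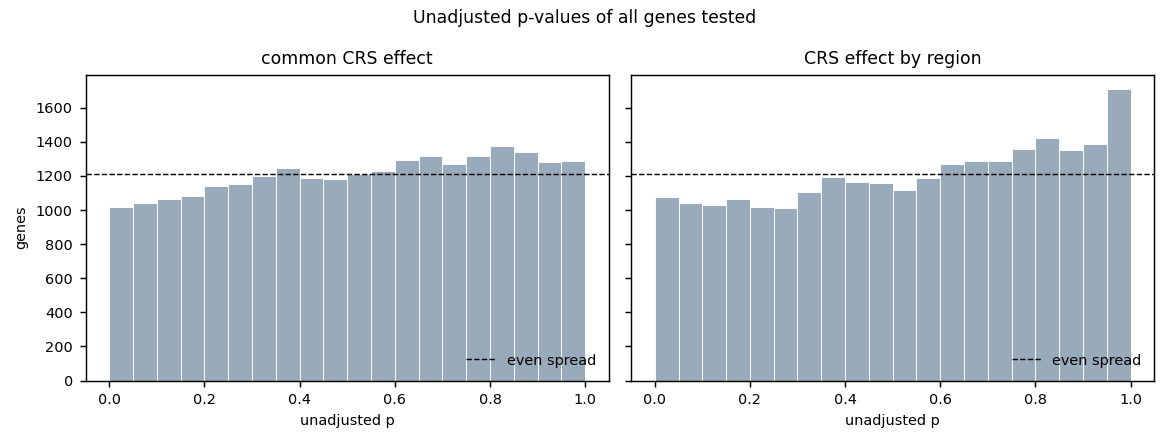
Number of genes (vertical axis) by unadjusted p-value in bins of 0.05 (horizontal axis) for the common CRS effect (left) and the CRS effect by region (right), with the count of an even spread as a dashed line. The lowest bin of the common effect holds 1018 genes, below the dashed line at 1212.2.

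Xlr4a belongs to the X-linked lymphocyte-regulated family, a cluster of near-identical genes on the mouse X chromosome in which Xlr3b, Xlr4b and Xlr4c are known to be imprinted. The promoters of the Xlr4 copies (250 bases before to 50 after the start, RefSeq, GRCm38.p6) are shown because reads of such copies are hard to assign. Capitals mark bases of Xlr4b and Xlr4c that differ from Xlr4a or are missing there, and the windows are offset against each other.
Xlr4a (chrX:73082458-73082757, minus strand): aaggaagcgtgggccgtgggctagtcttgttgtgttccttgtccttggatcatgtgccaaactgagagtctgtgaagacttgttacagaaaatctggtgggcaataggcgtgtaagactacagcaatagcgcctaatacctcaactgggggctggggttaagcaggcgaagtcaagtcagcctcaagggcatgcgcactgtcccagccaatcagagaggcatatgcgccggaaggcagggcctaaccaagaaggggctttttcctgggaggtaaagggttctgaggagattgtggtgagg
Xlr4b (chrX:73214083-73214382, plus strand): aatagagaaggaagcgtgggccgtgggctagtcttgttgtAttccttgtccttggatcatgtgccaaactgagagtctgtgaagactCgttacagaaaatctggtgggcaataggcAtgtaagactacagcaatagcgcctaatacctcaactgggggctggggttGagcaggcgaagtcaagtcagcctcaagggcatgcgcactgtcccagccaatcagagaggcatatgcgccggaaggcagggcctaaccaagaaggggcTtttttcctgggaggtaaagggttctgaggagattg
Xlr4c (chrX:73243081-73243380, minus strand): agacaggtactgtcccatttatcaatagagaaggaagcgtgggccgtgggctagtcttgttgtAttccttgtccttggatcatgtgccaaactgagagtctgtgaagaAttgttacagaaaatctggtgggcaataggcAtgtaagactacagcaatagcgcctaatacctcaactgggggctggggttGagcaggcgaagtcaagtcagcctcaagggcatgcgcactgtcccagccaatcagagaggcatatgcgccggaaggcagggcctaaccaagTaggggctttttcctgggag

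Over the aligned part, Xlr4b matched Xlr4a at 288 of 292 bases and Xlr4c matched it at 265 of 270 bases. The transcripts are alike too: 77.7% of the 50-base windows of Xlr4a transcripts in GENCODE M21 also occur in transcripts of other genes, foremost Xlr4c and Xlr4b. How reads that match several copies were treated is not given in the sources used here, so the split of counts among the Xlr4 copies, and among the Xlr3 copies, is uncertain.

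Xlr4a (ENSMUSG00000079845, chrX:73074345-73082478) was all but absent from CRS libraries. It had 0 reads in each CRS library of VTA, NAc and mPFC, while naive libraries had 38, 50 and 89 reads in VTA, 16, 52 and 93 in NAc and 22, 98 and 60 in mPFC. In vHippo the counts were 0, 0 and 3 in CRS libraries and 38, 32 and 59 in naive libraries. In LH they were 0, 4 and 10 in CRS libraries and 61, 121 and 121 in naive libraries. All 15 CRS libraries lay below the lowest naive library, which held for 0.00412% of the genes tested, that is for Xlr4a alone. The 15 CRS libraries had 17 reads in all and the 15 naive libraries 950.

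Against a floor of 3 counts over the CRS libraries of a region, Xlr4a was at least 46.7-fold lower in CRS libraries of VTA, at least 53.3-fold lower in NAc and at least 63.2-fold lower in mPFC. These limits cover counting error only. The fitted log2 fold change over the 5 regions was -6.18 (SE 0.57, adjusted p = 4.07e-07) and depends on how zeros are fitted. In level the gene is low, at 0.0108 ± 0.0259 FPKM in CRS libraries and 0.622 ± 0.372 FPKM in naive libraries (SD, n = 15 each).

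**Figure D2:**
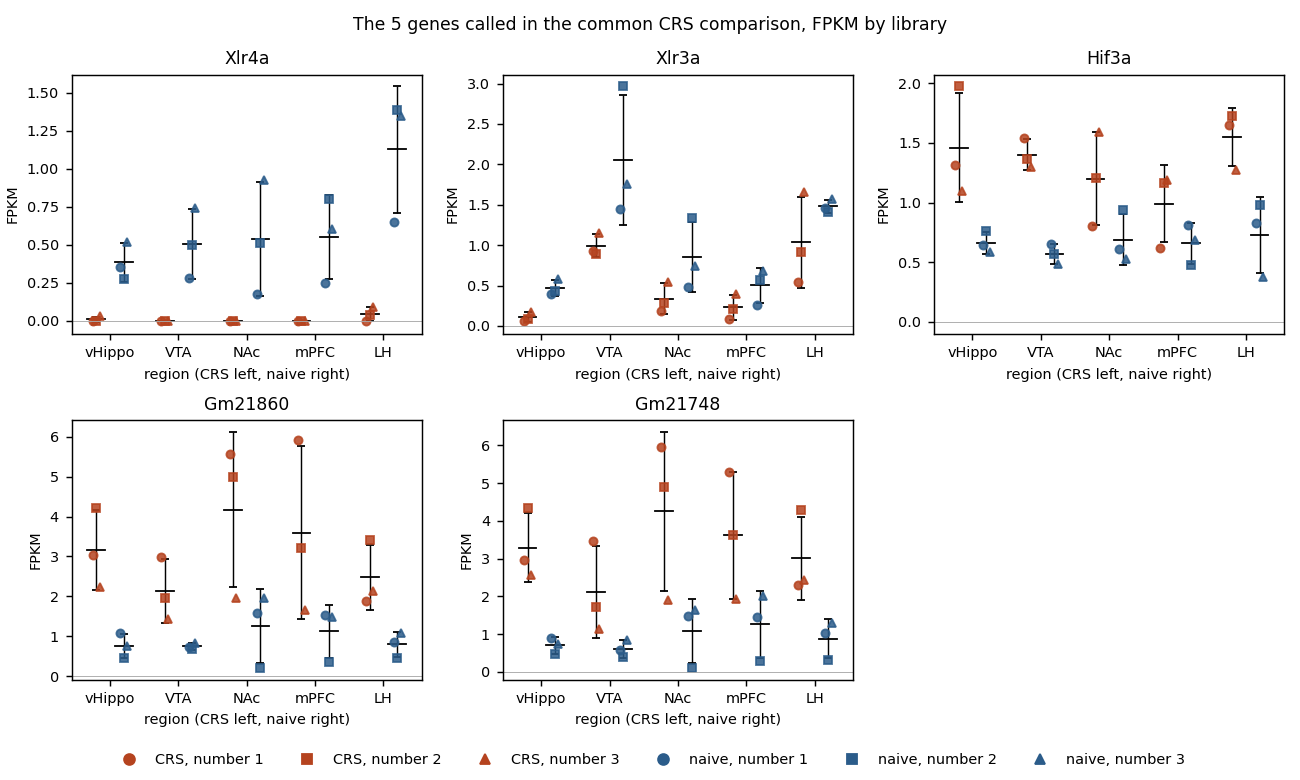
FPKM (vertical axes) of the 5 called genes in each library by region (horizontal axes), CRS in red left of naive in blue. Marker shapes give the library number, and black bars the mean and SD of 3 libraries. The Xlr4a points of CRS libraries all lie below those of naive libraries, while Hif3a, Gm21860 and Gm21748 are higher in most CRS libraries.

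Xlr3a (chrX:73086293-73097023) lies next to Xlr4a. Its FPKM ran from 0.0622 with a median of 0.394 to 1.65 in CRS libraries, and from 0.262 with a median of 0.744 to 2.97 in naive libraries. The groups overlap, and 6 of 15 CRS libraries lay below the lowest naive library. Within regions, CRS and naive libraries were fully apart in vHippo and VTA only. For this gene and those below, the share of all genes tested with such a separation within a region is not given here. Nor is the share with as many libraries beyond the range of the other group. These genes were chosen by p in the same libraries, so such counts are a description that follows in part from that choice. The log2 fold change was -1.23 (SE 0.23, adjusted p = 0.0451), with regional values of -0.61 in LH, -1.20 in mPFC, -1.24 in NAc, -1.07 in VTA and -2.09 in vHippo. The call is at the threshold: it was kept in 7 of the 30 fits that left out 1 library and was lost in the other fits of that kind.

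The other tested genes of the cluster did not pass the threshold in edgeR on all 30 libraries. Xlr4b had 79 reads in CRS libraries and 841 in naive libraries (log2 fold change -3.44, SE 0.68, adjusted p = 0.0883), and passed without naive mPFC 1 (adjusted p = 0.0180). Xlr3b had a median of 0.281 FPKM in CRS libraries and 2.86 FPKM in naive libraries (log2 fold change -2.17, SE 0.59, adjusted p = 0.525), with its CRS libraries in 2 sets that are described with the library numbers. Xlr3c had 128 reads in CRS libraries and 437 in naive libraries (adjusted p = 0.619), and Xlr4c had 100 reads in CRS libraries and 235 in naive libraries (adjusted p = 1). Other methods on the same libraries called some of these genes. DESeq2 called Xlr4b and Xlr3c, limma voom called Xlr3b, and voom with sample quality weights called Xlr3b and Xlr4b. None of these methods called Xlr4c. Xlr5a, Xlr5b and Xlr5c did not pass the filter on low counts. The log2 fold changes of Xlr3a, Xlr3b, Xlr3c, Xlr4a, Xlr4b and Xlr4c were negative in each of the 5 regions.

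Hif3a encodes an alpha subunit of the hypoxia-inducible factor family, some forms of which restrain the other HIF proteins, and it is known as a glucocorticoid-responsive gene. It lies on chr7:17031507-17062427. In CRS libraries it had 1.31, 1.97 and 1.09 FPKM in vHippo, against 0.641, 0.763 and 0.582 FPKM in naive libraries. In VTA it had 1.54, 1.36 and 1.3 FPKM in CRS libraries, against 0.656, 0.570 and 0.482 FPKM in naive libraries. In LH it had 1.65, 1.72 and 1.27 FPKM in CRS libraries, against 0.829, 0.981 and 0.374 FPKM in naive libraries. Each of these 3 regions had every CRS library above every naive one, which is a description with the limit given for Xlr3a.

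In NAc Hif3a had 0.803, 1.21 and 1.59 FPKM in CRS libraries, against 0.612, 0.934 and 0.525 FPKM in naive libraries, and in mPFC 0.616, 1.16 and 1.19 FPKM in CRS libraries, against 0.813, 0.475 and 0.689 FPKM in naive libraries. These groups overlap. Over all regions the level was 1.32 ± 0.348 FPKM in CRS libraries and 0.662 ± 0.174 FPKM in naive libraries (SD, n = 15 each), and 13 of the 15 CRS libraries lay above the highest naive library. The log2 fold change was 0.95 (SE 0.14, adjusted p = 0.00224), a 1.94-fold higher level in CRS libraries, and the regional values ran from 0.55 in mPFC to 1.25 in VTA. None of its 50-base windows occurs in another gene's transcripts. In bulk tissue, a change in RNA per cell and a change in the share of the cells that hold it cannot be told apart.

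Gm21860 (chrY:90752427-90755467) and Gm21748 (chrY:90838869-90839177) are predicted genes near the end of the Y chromosome. All 260 of the 50-base windows of each also occur in transcripts of other genes, G530011O06Rik and each other. Reads of the pair thus cannot be told apart from each other or from those of G530011O06Rik, and their calls are not independent. G530011O06Rik is among the genes whose levels followed the library number, as given with those numbers. Gm21860 ran from 1.44 with a median of 3.00 to 5.92 FPKM in CRS libraries, and from 0.215 with a median of 0.842 to 1.97 FPKM in naive libraries. CRS libraries lay wholly above naive ones in 4 of the 5 regions, the exception being NAc for Gm21860 and mPFC for Gm21748. The log2 fold change was 1.68 (SE 0.25, adjusted p = 0.00295) for Gm21860 and 1.80 (SE 0.30, adjusted p = 0.00927) for Gm21748, with regional values from 1.43 to 2.00 and from 1.54 to 2.18.

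Neighbours of the called Y-linked pair did not pass the threshold in edgeR, while limma voom with sample quality weights called Gm47283. Gm47283 (chrY:90784738-90816464), between them, had a log2 fold change of 1.19 (SE 0.30, adjusted p = 0.393), and the pseudogene Mid1-ps1 one of 0.69 (SE 0.24, adjusted p = 0.925). Mid1-ps1 (chrY:90753057-90763485) overlaps Gm21860 on the opposite strand, and without a stated use of strand their reads cannot be told apart. At the corresponding end of the X chromosome, Erdr1, which lies in the pseudoautosomal region that X and Y share, had a log2 fold change of 0.98 (SE 0.31, adjusted p = 0.851). Mid1, a ubiquitin ligase gene that reaches into that region, had one of -0.09 (SE 0.25, adjusted p = 1).

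Among genes with a mean level of at least 1 FPKM and a regular symbol none passed in edgeR. The 5 of smallest p in each direction are given here. Those higher in CRS libraries were Cry1, Dbp, Rbm3, Arid4a and Zfp39, with log2 fold changes of 0.27 to 0.40. Those lower were Klf2, Col5a1, Apold1, mt-Tl1 and Lgals1, with log2 fold changes of -0.60 to -1.28. All 10 had the same sign in each of the 5 regions in the fit of group means. That agreement in sign follows in part from choosing genes by a small p of the common coefficient. The calls depend on the method: DESeq2 on the same libraries called all 10. Limma voom with sample quality weights called Rbm3, Arid4a and Zfp39 of them.

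Cry1, which encodes a repressor of the circadian clock, averaged 5.88 ± 1.58 FPKM in CRS libraries and 4.33 ± 1.06 FPKM in naive libraries (SD over 15 libraries each, as in the values that follow; log2 fold change 0.40, SE 0.08, adjusted p = 0.181). Its regional log2 fold changes ran from 0.16 in vHippo to 0.56 in NAc, and CRS libraries lay wholly above naive ones in 1 region. Dbp, a clock-controlled transcription factor gene, averaged 19.4 ± 7.08 FPKM in CRS libraries and 15.4 ± 5.80 FPKM in naive libraries (log2 fold change 0.32, SE 0.07, adjusted p = 0.204). Both SDs span regions with different baselines, since Dbp was highest in NAc in both stress groups.

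The promoters of these clock genes are shown for the E-box CACGTG, the site that the CLOCK and BMAL proteins are known to bind. Capitals mark each CACGTG, which reads the same on both strands.
Cry1 (chr10:85185005-85185304, minus strand): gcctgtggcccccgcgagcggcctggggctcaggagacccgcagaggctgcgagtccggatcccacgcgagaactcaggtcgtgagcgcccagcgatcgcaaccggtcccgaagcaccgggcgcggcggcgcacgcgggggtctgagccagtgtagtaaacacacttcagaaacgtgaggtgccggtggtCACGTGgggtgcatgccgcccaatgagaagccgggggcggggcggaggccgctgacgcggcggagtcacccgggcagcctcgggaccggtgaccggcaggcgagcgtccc
Dbp (chr7:45704997-45705296, plus strand): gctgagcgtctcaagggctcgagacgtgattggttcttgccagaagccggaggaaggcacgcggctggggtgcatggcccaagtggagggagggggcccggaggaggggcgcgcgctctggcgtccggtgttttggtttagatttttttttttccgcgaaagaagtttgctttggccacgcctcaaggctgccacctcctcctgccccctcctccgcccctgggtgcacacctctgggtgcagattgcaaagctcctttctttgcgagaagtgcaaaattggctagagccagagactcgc

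Cry1 holds 1 CACGTG in this window and Dbp holds 0. Of all 32851 RefSeq promoter windows of that length 7.15% hold it, and of the 27 windows of the circadian clock list 6 do (Bhlhe41, Ciart, Cry1, Per1 and both windows of Tef). A match of letters is a description and not a bound site.

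Rbm3, an RNA-binding protein gene known for its induction by mild cold, averaged 16.4 ± 3.47 FPKM in CRS libraries and 12.3 ± 1.53 FPKM in naive libraries (log2 fold change 0.38, SE 0.08, adjusted p = 0.204). In it, 10 of the 15 CRS libraries lay above the highest naive library, and the regional values ran from 0.19 in LH to 0.79 in mPFC. Arid4a, a chromatin-associated gene, averaged 8.04 ± 1.21 FPKM in CRS libraries and 6.51 ± 0.857 FPKM in naive libraries (log2 fold change 0.27, SE 0.06, adjusted p = 0.250). Zfp39, a zinc finger gene, averaged 2.65 ± 0.444 FPKM in CRS libraries and 2.08 ± 0.443 FPKM in naive libraries (log2 fold change 0.33, SE 0.08, adjusted p = 0.346).

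On the lower side, Klf2, a transcription factor gene of endothelial cells, averaged 2.81 ± 0.970 FPKM in CRS libraries and 5.71 ± 3.28 FPKM in naive libraries (log2 fold change -1.03, SE 0.22, adjusted p = 0.204). Apold1, an early response gene of vessels, averaged 1.57 ± 1.03 FPKM in CRS libraries and 3.61 ± 1.92 FPKM in naive libraries (log2 fold change -1.28, SE 0.31, adjusted p = 0.393). Klf2 passed in 1 of the 30 fits that left out 1 library, the one without naive mPFC 1 (adjusted p = 0.0180). In neither gene was the difference even across library numbers, as given with those numbers. Col5a1, a collagen gene, had a log2 fold change of -0.79 (SE 0.19, adjusted p = 0.328), Lgals1, a galectin gene, one of -0.83 (SE 0.21, adjusted p = 0.393), and mt-Tl1, a mitochondrial transfer RNA gene, one of -0.60 (SE 0.15, adjusted p = 0.393).

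**Figure D3:**
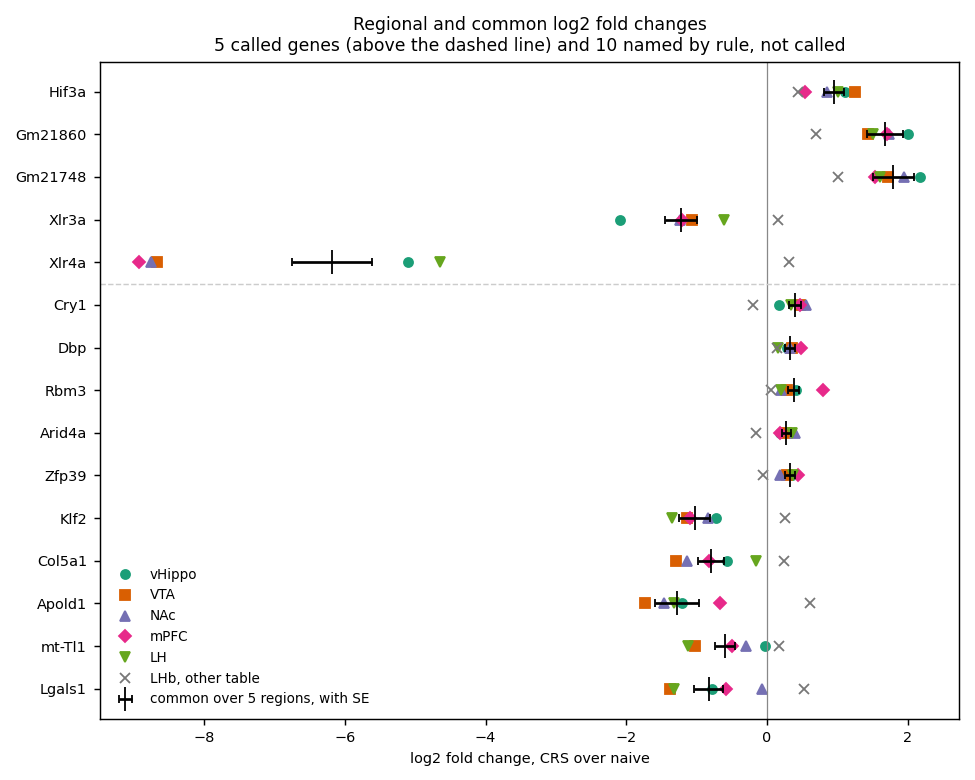
Log2 fold change of CRS over naive libraries (horizontal axis) for the 5 called genes, above the dashed line, and the 10 genes of smallest p among those at 1 FPKM or more. Coloured markers are the 5 regions, black ticks the common value with its SE and grey crosses the LHb libraries. The regional values of each gene lie on 1 side of 0, while the LHb cross lies on the other side of 0 for Xlr4a, Xlr3a, Cry1, Arid4a, Zfp39, Klf2, Col5a1, Apold1, mt-Tl1 and Lgals1.

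Held-out regions gave a description of the called genes, from libraries that are also part of the common comparison. In the fits of 4 regions, Xlr4a passed whichever region was left out, and Hif3a passed without NAc, without mPFC and without LH. The Y-linked pair passed without NAc and without mPFC. Plac8, not among the called genes, passed without NAc and could not be tested in NAc alone. In the region that took no part, 12 of the 12 gene and region combinations that passed and could be tested had the same direction, and 10 of them had an unadjusted p below 0.05 there. Over all genes, 47.4% to 54.8% had the same direction, and of the 100 genes of smallest p in each fit of 4 regions 67 to 81 did. The combinations above an unadjusted p of 0.05 came from edgeR fits of the 6 mPFC libraries. They were Hif3a in mPFC (log2 fold change 0.55, SE 0.34, unadjusted p = 0.143) and Gm21748 in mPFC (1.54, SE 0.73, unadjusted p = 0.0660). The combinations are not independent, since Xlr4a enters for each region and reads of the Y-linked pair cannot be told apart. The libraries of a held-out region carry the same numbers as those of the other regions, so they need not be other animals.

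LHb libraries gave a comparison with 6 CRS and 6 naive libraries of another table. There 273 of 23266 genes passed, or 1.17%, and none of the 5 genes was among them. Xlr4a had 0.463 ± 0.393 FPKM in CRS LHb libraries and 0.392 ± 0.467 FPKM in naive LHb libraries (log2 fold change 0.32, adjusted p = 0.930), and 2 naive LHb libraries had 0 reads of it. Low or absent Xlr4a was thus also measured in naive LHb libraries. Gene starts differ between the LHb table and that of the 5 regions, so multi-copy genes such as Xlr4a, Xlr3a and the Y-linked pair need not be counted alike in both. Hif3a had 0.576 ± 0.199 FPKM in CRS LHb libraries and 0.424 ± 0.233 FPKM in naive LHb libraries (log2 fold change 0.43, adjusted p = 0.652). Gm21860 had a log2 fold change of 0.70 (adjusted p = 0.282), Gm21748 one of 1.01 (adjusted p = 0.283) and Xlr3a one of 0.16 (adjusted p = 0.866). Of the 5 genes, 3 had the direction of the 5 regions, beside 49.2% of the 21747 genes tested in both tables and 40.4% of the 925 of them with an unadjusted p below 0.05 in the 5 regions.

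Levels of several genes followed the library number across regions. An F test of number within the stress groups, with region as a block, called 18 of 24244 genes (0.0742%, edgeR, adjusted p below 0.05). In 17 of them 1 number was the lowest or the highest of its stress group in all 5 regions. That count follows in part from calling the genes by number in these libraries and is no further test. The share over all genes is not given here. The genes were Mid1, Wdfy1, Ppt1, Erdr1, Xlr3b, Gm47283, Capn11, G530011O06Rik, Kbtbd8, Gm43305, Klf2, Eps8l1, Banp, Tob1, Ccl28, Gm48161, Gm16867 and Mex3b. Across 12378 well-expressed genes, by contrast, deviations from the group mean of same-numbered libraries of a stress group in different regions had a median correlation of 0.0151, and those of differently numbered libraries one of 0.0051.

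Mid1 shows the pattern most clearly (adjusted p = 6.43e-08 in the test of number). CRS 2 libraries had 0.644, 0.568, 0.759, 0.552 and 0.805 FPKM in vHippo, VTA, NAc, mPFC and LH, while the CRS 1 and CRS 3 libraries ran from 1.25 to 2.28 FPKM. Naive 1 libraries had 0.588, 0.583, 0.740, 0.503 and 0.765 FPKM in the same regions, while the naive 2 and naive 3 libraries ran from 1.06 to 2.49 FPKM. The low and high sets do not overlap in either stress group, and each stress group holds 1 low number.

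Xlr3b, in the cluster of Xlr4a, had 401, 466, 434, 374 and 547 reads in the CRS 3 libraries of vHippo, VTA, NAc, mPFC and LH. CRS 1 libraries had 2, 40, 9, 4 and 65 reads, and CRS 2 libraries had 8, 120, 8, 14 and 88 reads. Naive libraries had 359 to 1466 reads. The low values belong to CRS 1 and CRS 2 in each region. On the FPKM scale the CRS 3 libraries, at 1.64 to 2.27, lay below all naive libraries of their region except in NAc, where naive 1 had 1.63. Gm47283 had 1.68, 0.615, 1.16, 1.47 and 1.39 FPKM in the naive 1 libraries, the lowest value of each region, and 3.21 FPKM or more elsewhere.

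For Klf2, CRS 3 was lowest among the CRS libraries and naive 1 among the naive libraries in all 5 regions. Its mean over the regions was 2.60, 2.71 and 1.80 on the log2 CPM scale in CRS 1, 2 and 3, and 2.44, 3.79 and 3.70 in naive 1, 2 and 3, so that naive 1 lay within the CRS range. Apold1 had means of 2.29, 2.88 and 1.76 in CRS 1, 2 and 3 and of 2.25, 4.20 and 4.10 in naive 1, 2 and 3 on the same scale. In both genes the mean of naive 1 lay within the range of the 3 CRS means, below naive 2 and naive 3.

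**Figure D4:**
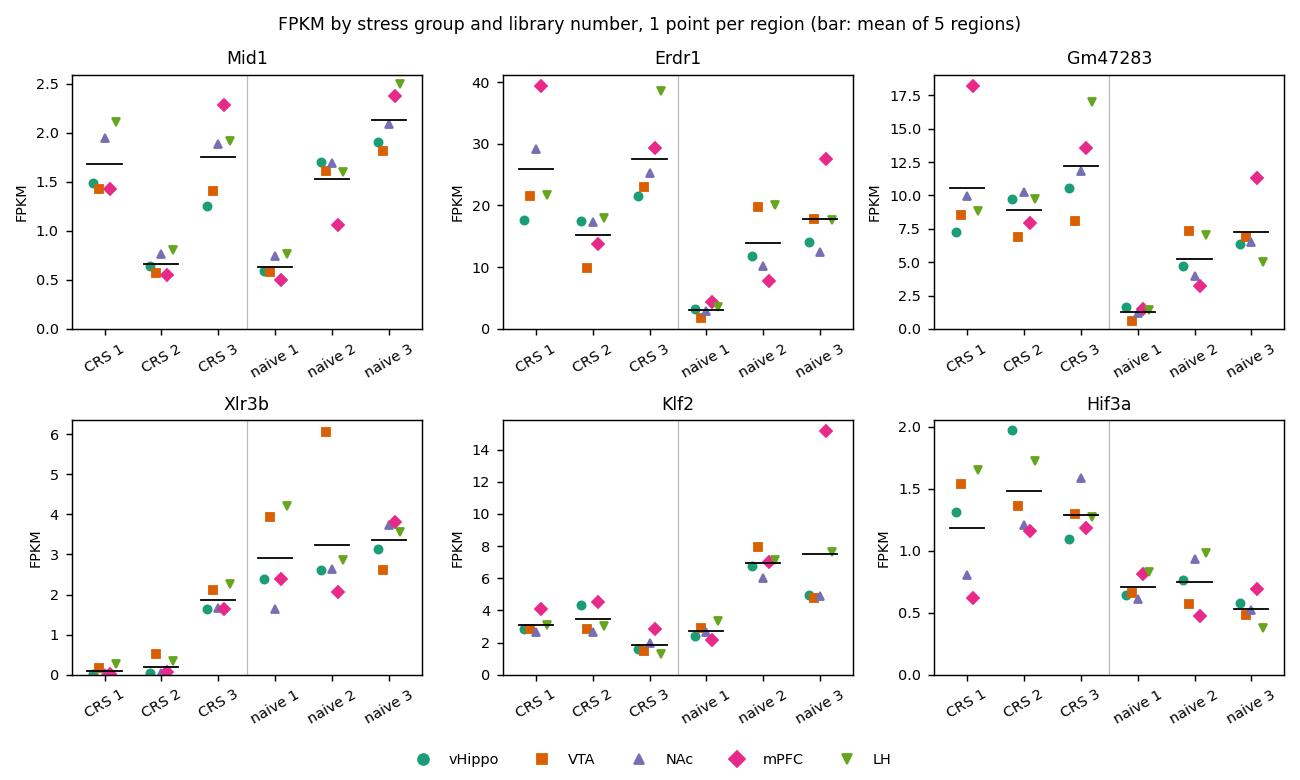
FPKM (vertical axes) of 6 genes by stress group and library number (horizontal axes), CRS left of naive, with 1 marker per region and the mean of the 5 regions as a bar. Mid1 is low in CRS 2 and naive 1 in all regions, Erdr1 and Gm47283 are low in naive 1, Xlr3b is near 0 in CRS 1 and CRS 2 in most regions, Klf2 in naive 1 lies among the CRS values, and Hif3a is higher on average in each CRS number than in each naive number.

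For the called genes the number means separate the stress groups. These genes were called from the same libraries, so the separation follows in part from that choice and is no further test. On the log2 CPM scale Hif3a averaged 3.00, 3.35 and 3.18 in CRS 1, 2 and 3 and 2.39, 2.39 and 1.89 in naive 1, 2 and 3. Gm21860 averaged 2.18, 2.07 and 1.24 in CRS 1, 2 and 3 and 0.57, -0.80 and 0.56 in naive 1, 2 and 3, and naive 2 was lowest in all 5 regions. Xlr3a averaged 0.03, 0.56 and 1.38 in CRS 1, 2 and 3 and 1.55, 2.24 and 2.04 in naive 1, 2 and 3. Between 3 number means and 3 number means the exact two-sided permutation test cannot go below p = 0.10, and each of the 5 genes gave p = 0.10. If same-numbered libraries of the 5 regions come from 1 mouse, the comparison is of 3 mice against 3, and a difference between stress groups cannot be told apart from one between mice.

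The gene lists of the stress response held 1 called member. Of 30 glucocorticoid response genes, Hif3a was called, 16 members were positive and 14 negative, and the median log2 fold change was 0.00, beside -0.01 over all genes tested. Klf15, a metabolic regulator known to be induced by glucocorticoids, averaged 6.14 ± 1.05 FPKM in CRS libraries and 4.90 ± 0.971 FPKM in naive libraries (log2 fold change 0.30, SE 0.08, adjusted p = 0.506). Dusp1, a phosphatase gene that is both a glucocorticoid target and an early response gene, averaged 5.87 ± 2.49 FPKM in CRS libraries and 8.43 ± 3.26 FPKM in naive libraries (log2 fold change -0.54, SE 0.14, adjusted p = 0.506). Ddit4, a stress-induced inhibitor of mTOR signalling, had a log2 fold change of -0.39 (SE 0.12, adjusted p = 0.778).

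Immediate early genes, which mark recent neuronal or vascular activation, had no called member among 38. Of them 32 were negative and 6 positive, with a median of -0.13. Jun had a log2 fold change of -0.34 (SE 0.09, adjusted p = 0.393) and Klf4 one of -0.86 (SE 0.24, adjusted p = 0.528). The list's median was 0.17 in NAc and negative elsewhere, at -0.53 in VTA, -0.30 in mPFC, -0.21 in vHippo and -0.06 in LH, so NAc differed in sign, and the common median was -0.08 without naive VTA 2. Its summed level overlapped widely, at 144 to 491 FPKM in CRS libraries and 142 to 544 FPKM in naive libraries.

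The circadian clock list had 15 of 22 members positive and none called by edgeR, with a median of 0.06. DESeq2 called Cry1 and Dbp. Besides Cry1 and Dbp, Per2, a core clock repressor gene, had a log2 fold change of 0.40 (SE 0.14, adjusted p = 0.915) and Bhlhe41, another clock repressor gene, one of 0.25 (SE 0.09, adjusted p = 1). Of the cold-inducible RNA-binding proteins and Clk kinases, 10 of 10 were positive with a median of 0.11. None was called by edgeR, while DESeq2 called Rbm3. Clk1 was at 0.36 (SE 0.10, adjusted p = 0.597) and Clk4 at 0.27 (SE 0.09, adjusted p = 0.915). Without CRS vHippo 2 the median of the clock list was 0.03. In LHb the signs were mixed. Log2 fold changes there were 0.14 for Dbp (adjusted p = 0.519), 0.14 for Per2 (0.430), 0.09 for Bhlhe41 (0.696) and 0.06 for Rbm3 (0.775), on the side of the 5 regions. They were -0.20 for Cry1 (0.326), -0.42 for Clk1 (0.0702) and -0.34 for Clk4 (0.0238), on the other side, and of these genes Clk4 alone passed in LHb.

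Autophagy, which the series is about, showed no common difference that passed. None of 36 autophagosome formation genes, 26 autophagy receptor and fusion genes, 54 lysosomal genes or 48 mTOR and AMPK genes was called, and the medians were -0.01, -0.01, -0.03 and 0.01. The member of smallest p among the receptors was Tbk1, a kinase that phosphorylates autophagy receptors, at 11.6 ± 0.957 FPKM in CRS libraries and 10.5 ± 1.29 FPKM in naive libraries (log2 fold change 0.12, SE 0.04, adjusted p = 0.969). For autophagosome formation it was Atg10, an enzyme of the ATG conjugation system (log2 fold change 0.17, SE 0.08, adjusted p = 1). Ulk1, the kinase that starts autophagy, had a log2 fold change of -0.09 (SE 0.06, adjusted p = 1). In the simulated data 64.0% of genes with a 1.5-fold change were recovered, so smaller differences could be missed. That share covers genes that were not low in counts, with libraries drawn as independent.

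**Figure D5:**
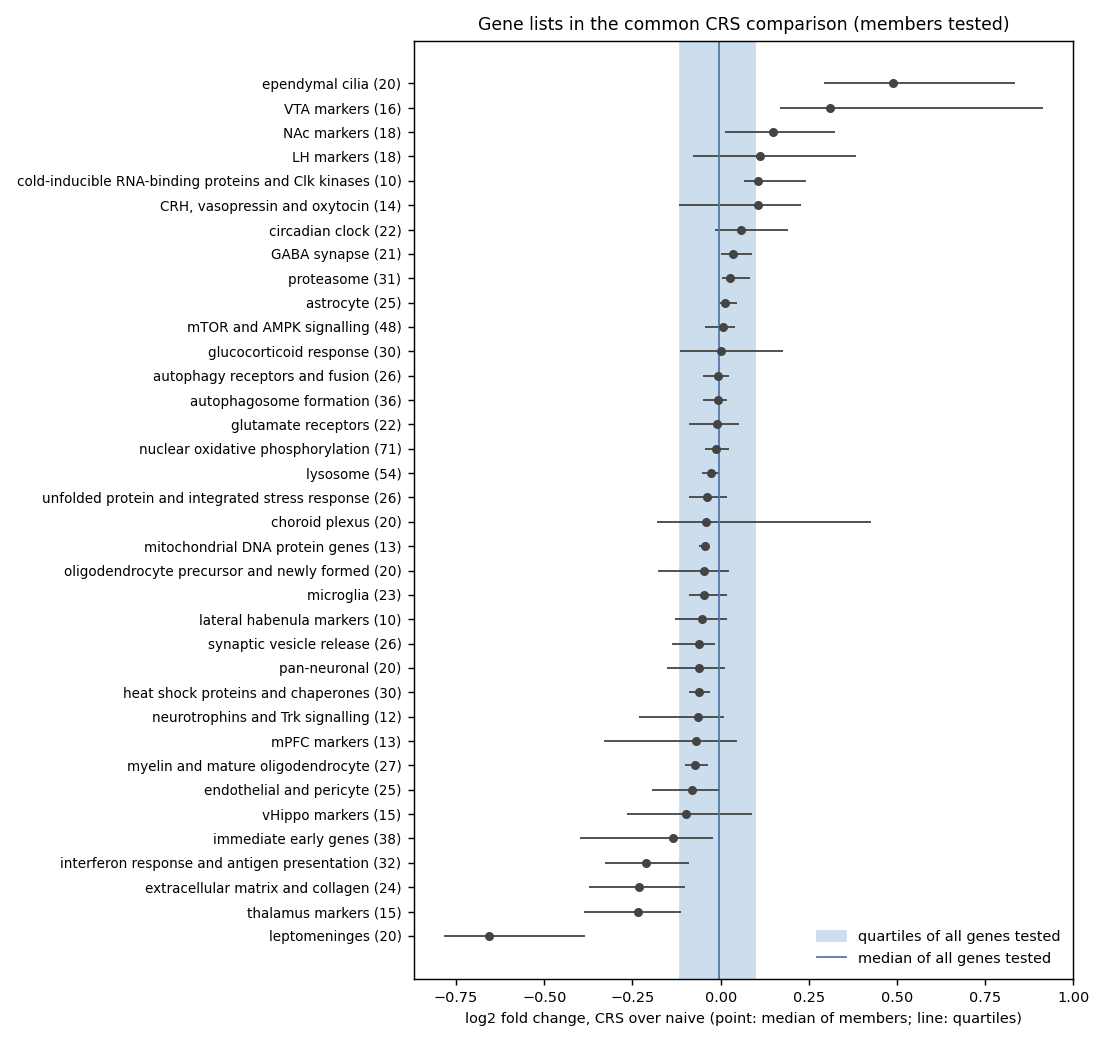
Median log2 fold change of CRS over naive libraries (point) and quartiles (line) of the tested members of each gene list with 10 or more of them, beside the median and quartiles of all 24244 genes (blue). The ependymal and leptomeningeal lists lie farthest from 0, and the medians of the autophagy, lysosome and mTOR lists lie inside the quartiles of all genes.

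Immune, synaptic and energy lists had no called member either. None of 32 interferon and antigen presentation genes passed (median -0.21, 26 of 32 negative). Without naive mPFC 3, which had a summed level of 227 FPKM against 83.5 to 186 FPKM in the other naive libraries, that median was -0.05. None of 22 glutamate receptor genes, 21 GABA synapse genes, 26 synaptic vesicle genes, 71 nuclear oxidative phosphorylation genes, 31 proteasome genes, 30 heat shock genes or 26 unfolded protein response genes passed, with medians between -0.06 and 0.04. Gria2, an AMPA receptor subunit gene, had a log2 fold change of 0.18 (SE 0.07, adjusted p = 1) and Grik1, a kainate receptor subunit gene, one of -0.30 (SE 0.12, adjusted p = 1). The regional medians of the oxidative phosphorylation list differed in sign, at 0.26 in mPFC and 0.10 in VTA, against -0.25 in LH, -0.14 in vHippo and -0.02 in NAc. Of its 71 members, 70 were positive in mPFC and 1 in LH. Its summed FPKM was 3549, 2201 and 2176 in CRS mPFC libraries, against 1929, 2260 and 2455 in naive mPFC libraries. CRS mPFC 1 thus stood apart from the other CRS mPFC libraries. In LH the sums were 2173, 2215 and 2575 in CRS libraries, against 2594, 2998 and 2354 in naive libraries. The groups overlap in both regions.

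Some marker lists of other tissue had medians farther from 0 than the immediate early genes, and a few libraries held much of the difference, while the medians of astrocyte, microglial, myelin, endothelial, choroid plexus and neuronal lists lay between -0.08 and 0.01. Leptomeningeal markers were negative for 20 of 20 members (median -0.66, none called), and their summed FPKM was 18.7, 28.2 and 112 in CRS mPFC libraries and 22.3, 17.1 and 316 in naive mPFC libraries, so 1 naive library, naive mPFC 3, holds most of it, and without it the median was -0.14. Ependymal cilia genes were positive for 19 of 20 members (median 0.49, none called), with sums of 52.2, 61.5 and 96.3 FPKM in CRS LH libraries, against 10.2, 13.03 and 25.6 FPKM in naive LH libraries. Without the LH libraries their median was 0.08. Markers of VTA neurons were positive for 14 of 16 members (median 0.31, none called), with sums of 615, 589 and 2153 FPKM in CRS VTA libraries, against 852, 144 and 467 FPKM in naive VTA libraries. Without CRS VTA 3 that median was 0.17. Th, the dopamine synthesis enzyme gene, had a log2 fold change of 1.29 (SE 0.45, adjusted p = 0.957), and of 0.64 without CRS mPFC 3.

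Collagen and vascular lists had no called member. Extracellular matrix genes were negative for 21 of 24 members (median -0.23, none called), with Col1a1 at -0.71 (SE 0.32, adjusted p = 1) and at -2.12 in mPFC, where the leptomeningeal sum was highest in a naive library. Without that library, naive mPFC 3, the list's median was -0.02 and Col1a1 was at -0.40. Endothelial and pericyte genes were negative for 19 of 25 members (median -0.08), with Cldn5, a tight junction gene, at -0.42 (SE 0.14, adjusted p = 0.915). Without naive mPFC 3 that median was 0.05 and Cldn5 was at -0.27. Regional medians are given in the order extracellular matrix, endothelial and leptomeningeal list. They were -0.24, 0.22 and -0.26 in vHippo, -0.21, -0.25 and -0.28 in VTA and -0.07, -0.17 and -0.01 in NAc. In mPFC they were -0.54, -0.21 and -1.63, and in LH 0.08, -0.14 and -0.59. The part of tissue content in the values of Col5a1, Lgals1, Klf2 and Apold1 was not tested. Without the 5 libraries whose region markers stood apart, Xlr4a, Hif3a, Gm21860 and Gm21748 passed and Xlr3a did not. These libraries were naive VTA 2, naive NAc 1, naive mPFC 3, naive LH 2 and CRS mPFC 3. In naive NAc 1 the mPFC markers summed to 348 FPKM, against 75.3 and 81.1 FPKM in the other naive NAc libraries. A separate fit without the 3 libraries with muscle transcripts had the same genes passing, and Xlr3a not.

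Whether the CRS effect differed between regions was tested with 4 interaction coefficients. No gene passed in edgeR (0%, 1074 genes or 4.43% at an unadjusted p below 0.05), while DESeq2 called 34. In the simulated data a change in VTA alone was recovered for 14.0% of genes at 2-fold and 68.0% at 4-fold, so the test finds large regional differences only. The 5 genes of smallest p in edgeR were Cyp2j12, Trim59, Gatm, Mal and Spag6l (adjusted p = 1 each in edgeR). All 5 were among the 34 called by the likelihood ratio test of DESeq2, with adjusted p from 0.0265 (Cyp2j12) to 0.0331 (Gatm), so this result depends on the method. Mal, a myelin protein gene, had log2 fold changes of 1.5 in vHippo and -1.28 in LH, and Gatm, the first enzyme of creatine synthesis, 0.97 and -1.09.

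Myelin genes behaved alike in this respect. Their median log2 fold change was 1.28 in vHippo, with 27 of 27 members positive, and -1.22 in LH, with 0 of 27 positive, so that the common median was -0.07. Summed myelin FPKM was 1038, 1873 and 523 in CRS vHippo libraries, against 408, 492 and 524 in naive vHippo libraries. In LH it was 1439, 1368 and 1064 in CRS libraries, against 3384, 3529 and 1547 in naive libraries. The groups overlap in vHippo and are apart in LH, and the part of tissue content in these values was not tested.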

How the data were processed

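Per the file headers, the authors deposited whole-number read counts and FPKM (fragments scaled to transcript length and library size) for each gene, in a table of 40905 genes for the 5 regions and a table of 37410 genes for LHb. Per the submitters' processing notes, cutadapt 1.9, HISAT2 2.0.4, StringTie 1.3.4d and edgeR (no version) were used. How reads were counted, and whether strand was used, is not given in the sources used here. The notes name GRCm39, yet in the table of the 5 regions 99.5% of 40748 genes matched by ID start where GENCODE M21 (GRCm38) places them, so its coordinates are given as GRCm38. A further 18 columns of per-sample values matched no sample and were not used.

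From the deposited counts, 24244 genes that passed filterByExpr (10 region-by-stress groups) entered the quasi-likelihood F test of edgeR 4.0.16 (R 4.3.3) with TMM factors, 1 CRS coefficient with region as a block, two-sided, Benjamini-Hochberg adjustment over all genes, threshold 0.05. Adjusted p-values in the report come from edgeR except where DESeq2 or limma is named, and every log2 fold change is CRS over naive with its standard error (SE). The authors' deposited FPKM were used as levels only. Regional log2 fold changes came from 10 group means. The F test of library number within stress group was added after the data were seen. Alternatives used DESeq2 1.42.0 and limma 3.58.1.

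Among genes at 1 FPKM or more on average, leaving out predicted and clone symbols, the text names those past the threshold or, where none passed in a direction, the 5 of smallest p, together with up to 4 members of each list and the 5 genes of smallest p in the test by region. None of the called genes met both conditions, so all 5 were named after their values were seen, as were the genes beside them on the chromosomes and those of the test of library number. The comparison, its members and the gene lists were chosen with earlier results of these data known. On simulated counts for the same 24244 genes, the common test recovered 64.0% of genes changed 1.5-fold, 88.0% of those changed 2-fold and 98.0% of those changed 4-fold, with 17 false calls. Each group holds 3 libraries, and the labels do not say that they are separate animals, so p-values measure the spread between these libraries. No same-numbered pairing of CRS and naive libraries was given by the labels.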

Additional observations from a re-analysis of the deposited data

How the results depend on the processing

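The main counts were 3 genes higher and 2 lower in CRS libraries. DESeq2 called 10 higher and 16 lower, limma voom 4 lower, voom with a correlation by number 4 lower, and voom with sample quality weights 14 higher and 9 lower. Counts summed by number (added after the data were seen) gave 0 higher and 0 lower. No low-count filter gave 1 lower, as did leaving out the 3 libraries with muscle transcripts or the 5 with other region markers (both chosen after the data were seen). Leaving out a whole region gave 0 higher without vHippo or VTA and 1 without LH, and 1 lower without vHippo, VTA, mPFC or LH. With library number as a replicate block, 1 gene was higher (Hif3a) and 2 were lower (Xlr4a and Xlr3a), and Gm21860 and Gm21748 lost their calls. The labels give no pairing. The correlation of deviations between CRS and naive libraries of 1 region had a median of 0.106 (-0.582 to 0.448) for the same number, over 0.1 in 8 of 15 pairs. For other numbers the median was -0.07, over 0.1 in 8 of 30 pairs. Deviations within a group sum to 0, so these values are tied to each other and do not settle whether numbers mark pairs. Leaving out 1 library at a time gave 3 to 3 genes higher, 1 to 4 lower, 0 to 2 for the effect by region and 3 to 4 genes with the same direction in LHb. Xlr4a, Hif3a, Gm21860 and Gm21748 passed in all 30 of these fits and Xlr3a in 7. The effect by region gave 0 genes, and 34 with DESeq2. Held-out regions gave 12 of 12 combinations with the same direction, and 11 of 12 with no low-count filter. The cause of these differences was not tested. None of the 49 genes whose fold changes were recomputed changed sign. Many of them were chosen for a small p and the alternatives reuse the same libraries, so a stable sign follows in part from that choice. List medians were not chosen in that way. The medians of 24 of the 39 lists changed sign under at least 1 alternative, in 144 of 1794 values. Myelin ran from -0.39 to 0.21, autophagosome formation from -0.03 to 0.02, oxidative phosphorylation from -0.08 to 0.04 and choroid plexus from -0.12 to 0.20 over the alternatives that did not leave out a single library. Genes with few reads limit precision: Xlr4a rests on 17 reads in CRS libraries and 950 in naive libraries.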
